A study of Mus musculus with 9 samples.

Results

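The genes described here encode the proteins that activate fatty acids to acyl-CoA, carry them into mitochondria and peroxisomes, and break them down by beta-oxidation, together with a pair of thioesterases and the PGC-1 coactivators. The set was chosen by gene name from knowledge of the pathway, with earlier results of these data known. It holds 40 named genes, all of which had an entry among the 57238 entries of the read table. The RNA came from dendritic cells cultured out of bone marrow (BMDCs) of wildtype C57BL/6 mice, 8 to 10 weeks old by the study's methods, grown from femurs in medium with 20 ng/ml GM-CSF. The labels give 6 days of culture, and the study's methods give 7. Control (CTR) BMDCs had no treatment, NE-treated BMDCs received exosomes of NIH-3T3 cells, a non-cancerous mouse fibroblast line, for 24 h, and TDE-treated BMDCs were given exosomes of tumor cells (TDE) for 24 h, with 3 libraries in each group. All 3 groups thus shared strain, genotype and GM-CSF, and both treated groups shared the time. The labels do not name the tumor line, and the study's methods give TC-1 or MC38 cells, both mouse carcinoma lines, as the source of exosomes that are not specified. Neither source says whether the 3 libraries of a group came from separate mice or cultures, so the p-values below measure the spread between these libraries, which may be technical.

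A fatty acid must first be joined to coenzyme A by an acyl-CoA synthetase before a cell can store it as triglyceride or oxidize it. Long-chain acyl-CoA enters the mitochondrion through the carnitine shuttle, in which CPT1 on the outer membrane, the carrier SLC25A20 and CPT2 on the inner membrane act in turn, while very long and branched chains enter the peroxisome through ABCD transporters. Each round of beta-oxidation then uses an acyl-CoA oxidase or dehydrogenase, a hydratase, a hydroxyacyl-CoA dehydrogenase and a thiolase. Dendritic cells store and oxidize fatty acids, and the study asked how exosomes change lipid metabolism and function in these cells.

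The libraries held 17469782 to 21092943 estimated reads on genes, and the floor of 3 reads corresponded to 0.135 to 0.189 CPM, that is, reads scaled to the TMM-normalized library size. Intervals and floors of this kind cover counting error only. One library stood apart over all genes: CTR replicate 1 had a mean correlation of 0.870 with the other CTR libraries over all tested genes, whereas the lowest correlation among the other 8 libraries was 0.941. It lay more than 1 log2 unit from the mean of CTR replicates 2 and 3 in 11 of the 35 tested members (8 higher, 3 lower), which compares with 42.8% of all tested genes. The members ranged from -1.37 (Ehhadh) to 2.82 (Etfb) in this respect, and across members the difference had a Spearman correlation of -0.42 with gene length, a description over genes that share one library. Over all tested genes this correlation was -0.49, so it was not particular to the members. Both values are given where leaving out this library changed the call, the sign or the size of a difference by more than 1.5 times. This covers members whose difference between TDE and CTR with all libraries is printed.

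The label of dendritic cells was set beside marker genes. Of 14 dendritic cell markers, Itgax, Cd74, the MHC class II genes, Irf8 and Ccr7 each exceeded 100 CPM in every CTR library, Cd209a lay at or under the floor in every library and Xcr1 lay under 1 CPM. Macrophage markers were high too, with Csf1r at 1366 CPM or more in every library. In TDE-treated against CTR BMDCs, 10 of 12 neutrophil markers, 6 of 6 eosinophil markers, 5 of 7 lymphocyte markers and 5 of 14 dendritic cell markers fell by edgeR's test, while 1 of 11 macrophage markers (Adgre1) rose and 2 fell. Against NE-treated BMDCs, 7 neutrophil, 5 eosinophil, 1 lymphocyte, 2 dendritic cell and 1 macrophage markers were lower and Adgre1 was higher. Without CTR replicate 1, all 12 neutrophil, 6 eosinophil and 5 tested lymphocyte markers, 8 dendritic cell and 7 macrophage markers were lower in either comparison, and 2 dendritic cell markers (Irf4 and Irf8) and 2 macrophage markers (Adgre1 and Fcgr1) were higher. The fibroblast markers Dcn and Pdgfrb rose and the epithelial marker Cdh1 fell against CTR with all libraries. The summed neutrophil markers ran from 7167 to 28946 CPM in CTR, from 7553 to 10887 CPM in NE-treated and from 3106 to 3405 CPM in TDE-treated libraries, and the highest CTR value was that of CTR replicate 1. Summed eosinophil markers ran from 419 to 1369 CPM in CTR, 442 to 504 CPM in NE-treated and 99.0 to 122 CPM in TDE-treated libraries. Summed dendritic cell markers ran from 5020 to 14870 CPM, 4798 to 6030 CPM and 2916 to 3105 CPM in the same order, macrophage markers from 4805 to 5587 CPM, 4666 to 5021 CPM and 5935 to 6340 CPM, and lymphocyte markers from 22.0 to 41.2 CPM, 20.0 to 26.2 CPM and 11.4 to 11.6 CPM. Much of the dendritic cell sum was Cd74, at means of 4443 CPM in CTR, 2211 CPM in NE-treated and 866 CPM in TDE-treated libraries. The 5 dendritic cell markers that fell against CTR with all libraries were Cd74, H2-Aa, H2-Ab1, H2-Eb1 and Ccr7. Means of Flt3 (14.0, 14.5 and 14.3 CPM) were level, and those of Irf8 (281, 280 and 345 CPM) were highest with TDE. The higher macrophage sum with TDE was carried by Adgre1, at a mean of 377 CPM in CTR and 2227 CPM in TDE-treated libraries, and the other 10 macrophage markers summed to 4358 to 5381 CPM in CTR, 4262 to 4552 CPM in NE-treated and 3823 to 4031 CPM in TDE-treated libraries. Fibroblast, epithelial and erythroid markers summed to at most 13.4 CPM in every library, with Cldn4 at 0 throughout. In bulk RNA, fewer cells of a type and less RNA per cell cannot be told apart, and the part of these markers in the results for the members was not tested.

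Of the 40 members, 35 passed the filter on low counts and were tested among 15028 genes, and Acsl6, Cpt1a, Cpt2, Acaa1b and Ppargc1a did not. Between TDE-treated and CTR BMDCs, 4 of the 35 tested members differed at an adjusted p-value under 0.05 (edgeR quasi-likelihood test with Benjamini-Hochberg adjustment over all tested genes): Acsl5 and Abcd2 rose and Slc27a1 and Acot1 fell. This is 11.4% of the tested members beside 16.9% of all tested genes (7.57% higher and 9.34% lower). Between TDE-treated and NE-treated BMDCs, Acsl5, Cpt1c and Abcd2 were higher and Acot1 and Acot2 lower in TDE-treated cells, 5 members or 14.3%, beside 13.9% of all tested genes (6.73% higher and 7.21% lower). With this test and all libraries, the share of members that differed was below that of all genes against CTR and close to it against NE, and the calls went in both directions. The members' share was above that of all genes without CTR replicate 1: the same test called 16 members against CTR, or 45.7% (7 higher and 9 lower), beside 34.4% of all genes (16.4% higher and 18% lower), and 18 against NE, or 51.4% (7 higher and 11 lower), beside 40.7% (19.2% higher and 21.5% lower). DESeq2 on all 9 libraries called 11 members against CTR (31.4%, beside 26.7% of all genes) and 7 against NE (20%, beside 20.1%). With limma voom and sample quality weights, which give a library that stands apart less weight, 21 members or 60% passed in either comparison (beside 52.5% of all genes against CTR and 55.3% against NE). Fitted to only the 6 libraries compared, 2 members passed against CTR (5.71%, beside 7.93%) and 18 against NE (51.4%, beside 41.9%), and with a replicate block 2 and 3 members passed (5.71% and 8.57%, beside 8.55% and 7.82%). Whether the members' share lay above or below that of all genes thus depended on the tool and on CTR replicate 1.

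The median log2 fold change of the 35 tested members was -0.10 against CTR and -0.08 against NE, where the medians over all tested genes were -0.05 and -0.02. The libraries of TDE-treated and CTR BMDCs did not overlap in 16 of the 35 tested members (7 higher and 9 lower with TDE), beside 44% of all tested genes (22.2% higher and 21.8% lower), and in 24 members without CTR replicate 1, beside 63%. Those of TDE-treated and NE-treated BMDCs did not overlap in 22 members (8 higher and 14 lower), beside 54.5% (26.8% higher and 27.7% lower). Both comparisons use the same TDE-treated libraries.

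**Figure D1:**
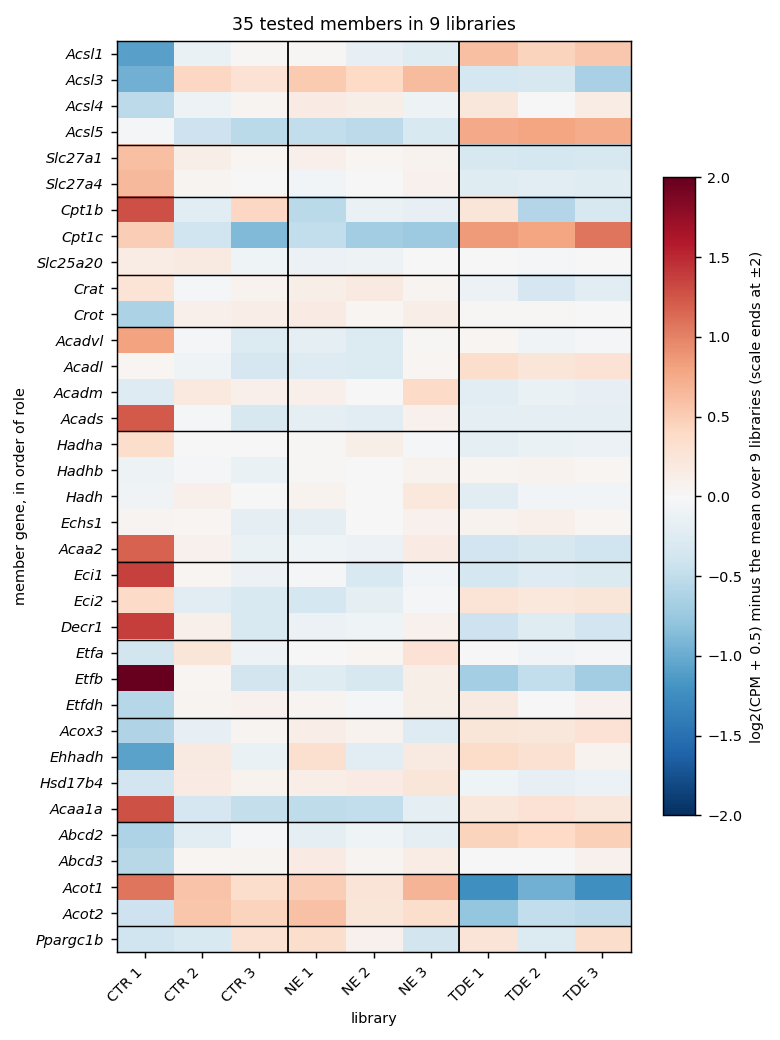
Each row is a tested member and each column a library. Colour shows log2(CPM + 0.5) minus the mean of the gene over the 9 libraries (the scale ends at 2 log2 units in either direction), and black lines separate roles and groups. CTR replicate 1 departs from the other libraries in both directions, and Acsl5 is highest and Acot1 lowest in the 3 TDE-treated libraries.

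**Figure D2:**
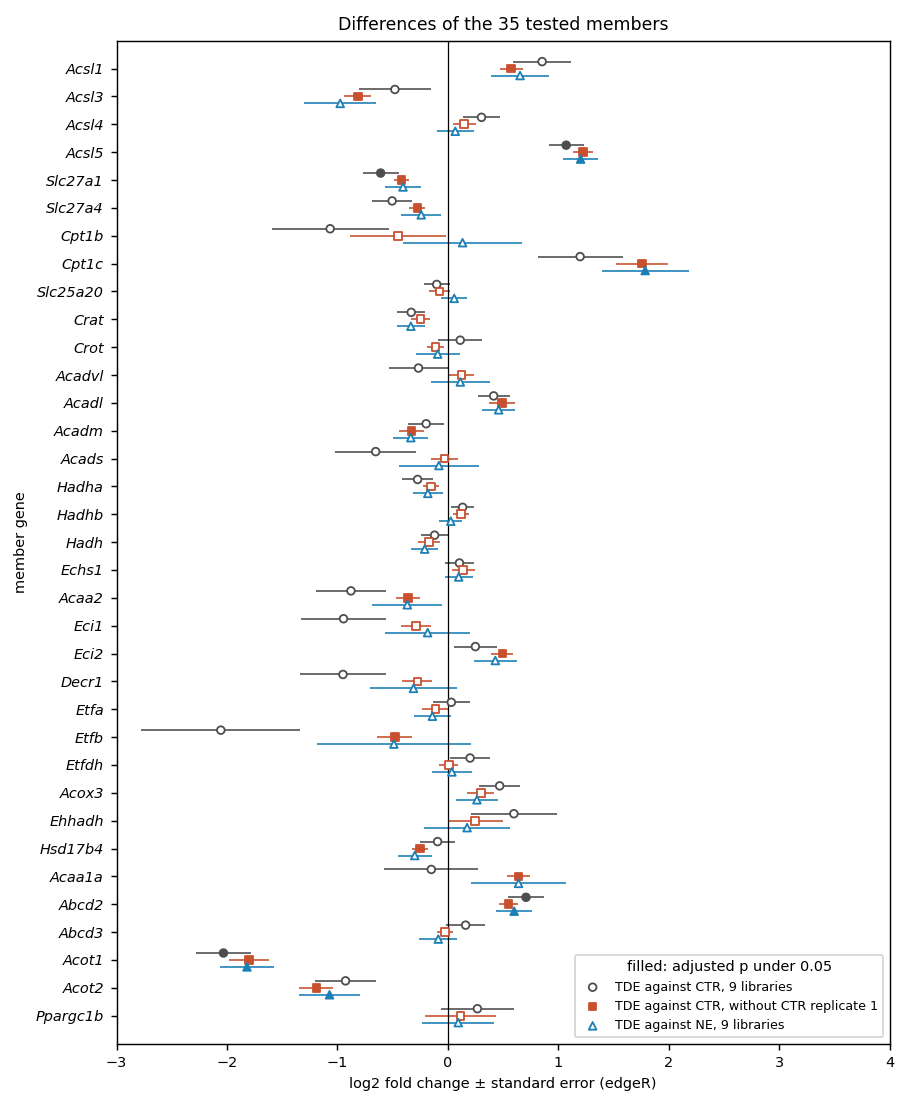
Log2 fold changes from edgeR, with standard errors derived from its F statistic, for the 35 tested members, for TDE against CTR with all libraries (circles), TDE against CTR without CTR replicate 1 (squares) and TDE against NE with all libraries (triangles). Filled symbols had an adjusted p-value under 0.05. Acsl5, Abcd2 and Acot1 are filled in all 3 series, and Acaa1a lies at -0.15 with CTR replicate 1 and at 0.64 without it.

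The acyl-CoA synthetases carry out the first step. Acsl5, which acts on long-chain fatty acids at mitochondria and the endoplasmic reticulum, had 136, 104 and 95.5 CPM in CTR replicates 1, 2 and 3, 97.9, 96.5 and 112 CPM in the NE-treated and 234, 241 and 231 CPM in the TDE-treated libraries. All 3 TDE-treated libraries lay above every other library, and CTR replicate 1 was the highest of the rest. Its log2 fold change was 1.07 against CTR (SE 0.159, adjusted p = 0.00368, edgeR) and 1.20 against NE (SE 0.159, adjusted p = 0.00199). Without CTR replicate 1 the first value was 1.22 (SE 0.0900, adjusted p = 1.71e-05), and Acsl5 passed the test in both comparisons under each of the 17 alternatives. Acsl5 lies on chromosome 19 (55251938 to 55297720, + strand, GRCm38) and shares 404 exon bases on the opposite strand with Zdhhc6, which had about 1435 reads per library on average against 2812 for Acsl5. Whether the counting used strand is not given in the sources used here. An exon overlap with another gene was found for 17 of the members, and for 4 of them on the same strand.

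Acsl1, the main synthetase of fat and muscle and a known target of PPAR receptors, had 45.1, 87.4 and 97.6 CPM in CTR, 97.7, 85.9 and 80.8 CPM in NE-treated and 146, 131 and 139 CPM in TDE-treated libraries. The TDE-treated libraries lay above all others, and CTR replicate 1 lay furthest below them. The log2 fold change of 0.85 against CTR (SE 0.260) had an adjusted p of 0.0572 by edgeR and of 0.0119 by DESeq2, and without CTR replicate 1 it was 0.57 (SE 0.101, edgeR adjusted p = 0.00245). Against NE it was 0.65 (SE 0.259, edgeR adjusted p = 0.148, and 0.000512 without CTR replicate 1, which enters that comparison only through the shared fit). Acsl3, found on the endoplasmic reticulum and lipid droplets, had differences of the opposite sign, with 9.16, 24.5 and 22.3 CPM in CTR, 26.4, 24.0 and 28.6 CPM in NE-treated and 14.2, 14.5 and 11.5 CPM in TDE-treated libraries. Here the TDE-treated libraries lay below the NE-treated ones and below CTR replicates 2 and 3, but above CTR replicate 1. Acsl3 shares 244 exon bases on the same strand with Utp14b, which had about 218 reads per library on average against 377 for Acsl3. The difference of Acsl3 from NE was -0.98 (SE 0.325, adjusted p = 0.0881 by edgeR and 0.0332 by DESeq2), and also -0.98 without CTR replicate 1 (edgeR adjusted p = 0.000152). Its difference from CTR was -0.48 (SE 0.323, edgeR adjusted p = 0.311) or, without CTR replicate 1, -0.82 (SE 0.123, adjusted p = 0.00103). Acsl4, which prefers arachidonic acid, had log2 fold changes of 0.30 against CTR (0.15 without CTR replicate 1) and 0.07 against NE that did not pass edgeR's test. Acsl6, the synthetase of brain and germ cells, was listed at 0 in every library.

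Of the fatty acid transport proteins, which sit in the membrane and also have synthetase activity, Slc27a1 fell. It had 148, 105 and 100.2 CPM in CTR, 105, 99.98 and 102 CPM in NE-treated and 77.8, 76.2 and 77.6 CPM in TDE-treated libraries, and the TDE-treated libraries lay below all others. The log2 fold change was -0.61 against CTR (SE 0.162, adjusted p = 0.0370, edgeR) and -0.42 without CTR replicate 1 (SE 0.0665, adjusted p = 0.00135). Against NE it was -0.41 (SE 0.161, edgeR adjusted p = 0.148), and also -0.41 without CTR replicate 1 (edgeR adjusted p = 0.000638). NE-treated and CTR BMDCs themselves differed by -0.20 (adjusted p = 0.659). The call against CTR was kept in 2 of the 9 fits that left out 1 library, those without CTR replicate 1 (above) and CTR replicate 3, and lost in the other 7 fits, with adjusted p-values of up to 0.129 (without TDE replicate 2). Slc27a4 ranged from 59.4 to 60.1 CPM in TDE-treated and from 67.5 to 110.3 CPM in the other libraries, with differences of -0.51 against CTR (edgeR adjusted p = 0.0907) and -0.24 against NE (adjusted p = 0.482). With CTR replicate 1 left out it passed in both comparisons, at -0.28 against CTR (adjusted p = 0.0182) and -0.25 against NE (adjusted p = 0.0155), and without CTR replicate 3 it passed against CTR (-0.62, adjusted p = 0.0441).

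The carnitine shuttle showed very unequal levels. Cpt1c, the member of the CPT1 family best known from neurons and from the endoplasmic reticulum, had 4.36, 2.12 and 1.36 CPM in CTR, 1.96, 1.62 and 1.59 CPM in NE-treated and 5.70, 5.45 and 6.73 CPM in TDE-treated libraries. The TDE-treated libraries lay above all others, and CTR replicate 1 was the highest of the rest. Its log2 fold change was 1.79 against NE (SE 0.395, adjusted p = 0.0196, edgeR) and 1.20 against CTR (SE 0.386, adjusted p = 0.0684). Without CTR replicate 1 the difference from CTR was 1.76 (SE 0.232, adjusted p = 0.000505), and the call against NE held under 11 of the 17 alternatives, the 6 others being the fits without any one NE-treated or TDE-treated library. Cpt1b, the muscle form, stayed low, with 3.73, 0.992 and 1.81 CPM in CTR, 0.689, 1.08 and 1.04 CPM in NE-treated and 1.55, 0.654 and 0.887 CPM in TDE-treated libraries, which overlap throughout. Its differences of -1.07 against CTR (SE 0.529, edgeR adjusted p = 0.186), or -0.45 without CTR replicate 1 (adjusted p = 0.466), and 0.13 against NE (SE 0.540, adjusted p = 0.935) did not pass, and 2744 of its 3372 exon bases are shared on the same strand with Gm44502, so its reads could be split between these entries. Slc25a20, the carnitine-acylcarnitine carrier, ranged from 42.8 to 52.5 CPM over the 9 libraries and did not differ in any comparison by the test.

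Cpt1a, the CPT1 of liver and most other tissues, and Cpt2, the sole inner-membrane enzyme, were listed at almost no reads. Deposited values of Cpt1a were 1.02, 0.94 and 1.04 in CTR, 0, 1 and 0 in NE-treated and 2.06, 2.28 and 3.14 in TDE-treated libraries, and those of Cpt2 were 1.04, 0.93 and 1.04, then 0, 1 and 1, then 1.36, 1.34 and 1.44. Every value lay at the floor of 3 reads or below once rounded, so no fold is given. The TDE-treated values of Cpt1a lay above the others in an exact permutation test of mean CPM only as far as 3 libraries against 3 allow (two-sided p = 0.1 against CTR and 0.1 against NE, the smallest possible), and for Cpt2 the p-values were 0.9 and 0.2, or 0.1 and 0.1 on the reads as deposited. The form of these entries was unusual as well. Values fractional in all 3 CTR libraries occurred in 4144 of 57238 entries, and an authors' CTR mean of exactly 1 in 714. Both occurred in 3 entries, Cpt1a, Cpt2 and Ppara, the gene of the nuclear receptor PPARα. The CTR libraries themselves averaged 1 for Cpt1a, 1.003 for Cpt2 and 1.1 for Ppara. The NE mean of Cpt2 was given as 0.66, where its libraries averaged 0.667. These criteria were applied with the odd form of the Cpt1a and Cpt2 entries already known. Among 171714 group means given by the authors, the TDE mean of Cpt1a was the only one with 9 decimals and its NE mean the only one with 3. What gave these entries their form was not tested, and the levels of Cpt1a and Cpt2 listed here are therefore given without comparison to other genes. Of the carnitine acyltransferases outside this shuttle, Crat, which handles acetyl and other short chains, had 94.4, 76.2 and 81.3 CPM in CTR, 84.7, 87.6 and 80.3 CPM in NE-treated and 71.5, 61.7 and 67.1 CPM in TDE-treated libraries, lowest in the 3 TDE-treated ones. The difference of Crat from CTR was -0.33 (SE 0.129, adjusted p = 0.111 by edgeR and 0.0499 by DESeq2). Its difference from NE was -0.34 (edgeR adjusted p = 0.137), and also -0.34 without CTR replicate 1 (edgeR adjusted p = 0.00677). Peroxisomal Crot differed by 0.11 from CTR, or -0.11 without CTR replicate 1, and did not pass in either comparison.

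**Figure D3:**
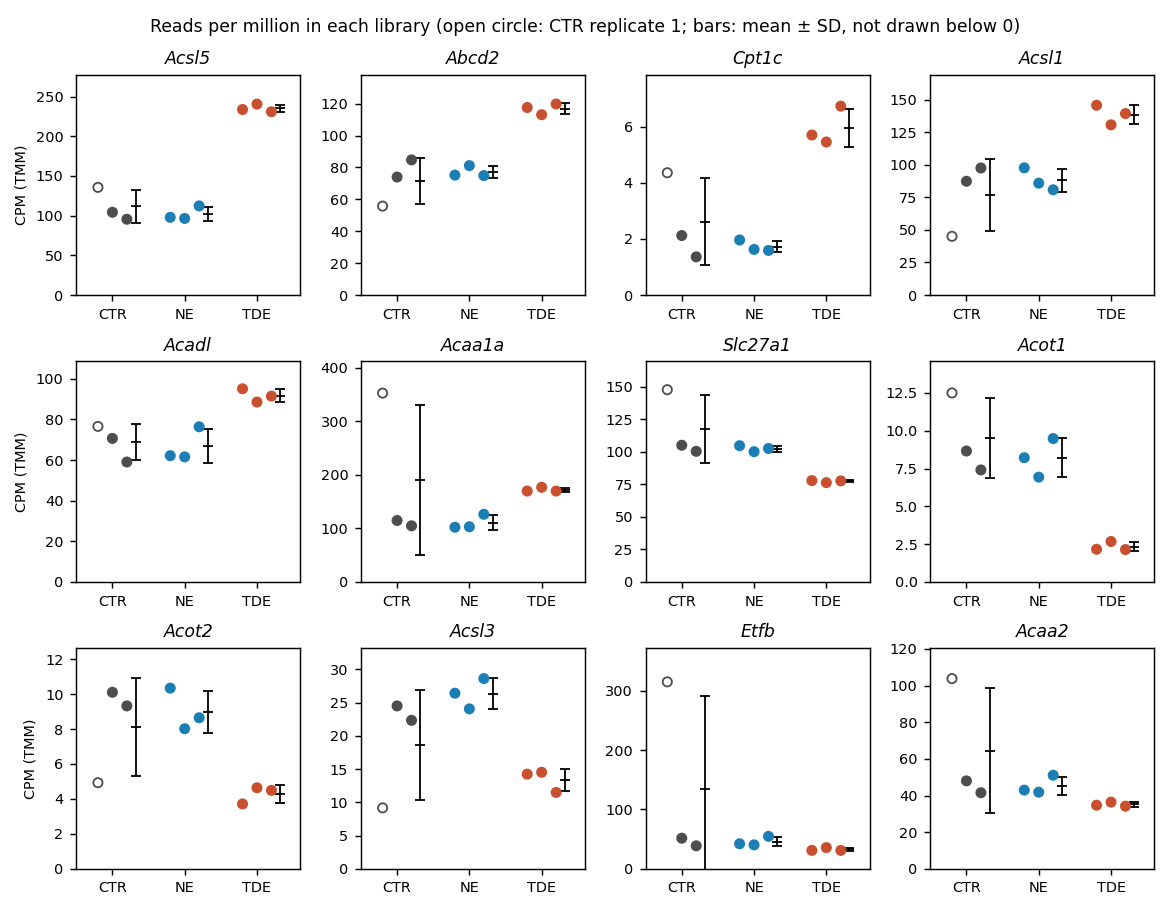
CPM of 12 members in each library of the 3 groups, with the group mean and SD beside the points (SD bars are not drawn below 0). The open circle is CTR replicate 1. Acsl5, Abcd2, Cpt1c, Acsl1 and Acadl are highest and Slc27a1, Acot1, Acot2, Etfb and Acaa2 lowest in the 3 TDE-treated libraries, and the open circles of Acaa1a, Etfb and Acaa2 lie far above CTR replicates 2 and 3.

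The acyl-CoA dehydrogenases open each mitochondrial cycle and differ in the chain length they prefer. None of the 4 passed edgeR's test with all libraries in either comparison. Acadl, for long chains, had 76.5, 70.6 and 59.0 CPM in CTR, 62.1, 61.5 and 76.3 CPM in NE-treated and 95.1, 88.5 and 91.4 CPM in TDE-treated libraries, so that the TDE-treated libraries lay above all others. Its log2 fold changes of 0.41 against CTR (SE 0.146) and 0.46 against NE (SE 0.146) had edgeR adjusted p-values of 0.0880 and 0.0762 and DESeq2 adjusted p-values of 0.0404 and 0.0172. Without CTR replicate 1 they were 0.49 and 0.45, with edgeR adjusted p-values of 0.0116 and 0.00792. Acadm, for medium chains, differed by -0.20 from CTR and -0.34 from NE (adjusted p = 0.397 and 0.229, edgeR). Without CTR replicate 1 these were -0.33 and -0.34 (adjusted p = 0.0497 and 0.0241, edgeR). Acadvl and Acads were read in CTR replicate 1 at 89.6 and 102 CPM, against 42.0 to 52.7 CPM and 34.5 to 45.7 CPM in the other 8 libraries. Their differences from CTR were -0.27 and -0.65 with that library and 0.12 and -0.03 without it, and neither passed edgeR's test with or without it.

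None of the enzymes of the following steps passed edgeR's test with all libraries, while DESeq2 called Acaa2 and voom called Acaa2, Eci1, Eci2 and Decr1 against CTR. Hadha and Hadhb, the subunits of the mitochondrial trifunctional protein, had log2 fold changes of -0.27 and 0.13 against CTR, Hadh of -0.12 and Echs1 of 0.10. When CTR replicate 1 was left out these were -0.15, 0.12, -0.17 and 0.14, and none passed against CTR, although Hadha was lower than in NE-treated cells without CTR replicate 1 (-0.19, adjusted p = 0.0466). Acaa2, the thiolase that ends the cycle, had 104, 48.0 and 41.5 CPM in CTR, 42.9, 41.8 and 51.1 CPM in NE-treated and 34.7, 36.4 and 34.2 CPM in TDE-treated libraries. The TDE-treated libraries lay below all others, and the CTR mean was carried by CTR replicate 1. The difference from CTR was -0.88 with that library (SE 0.319, adjusted p = 0.0949 by edgeR and 0.0495 by DESeq2) and -0.36 without it (SE 0.108, edgeR adjusted p = 0.0296). From NE, Acaa2 differed by -0.37 with that library (edgeR adjusted p = 0.556) and -0.38 without it (edgeR adjusted p = 0.0138). Eci1, Eci2 and Decr1, which prepare unsaturated chains for the cycle, differed from CTR by -0.95, 0.25 and -0.95 and from NE by -0.18, 0.43 and -0.31, with no call by edgeR. Without CTR replicate 1, Eci2 rose by 0.49 against CTR (adjusted p = 0.00504, edgeR) and was higher by 0.42 than in NE (adjusted p = 0.00494, edgeR). In the same fit Eci1 and Decr1 differed from CTR by -0.29 and -0.28 (adjusted p = 0.125 and 0.152, edgeR). Without CTR replicate 3 the latter pair passed against CTR, at -1.20 and -1.25 (adjusted p = 0.0446 and 0.0338, edgeR).

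Electron transfer flavoprotein hands the electrons of the dehydrogenases to the respiratory chain. Its beta subunit gene Etfb showed the widest gap between CTR replicate 1 and the rest of any member, with 315, 51.5 and 38.7 CPM in CTR, 42.2, 40.3 and 54.6 CPM in NE-treated and 31.0, 35.7 and 30.9 CPM in TDE-treated libraries. The log2 fold change against CTR was -2.06 (SE 0.719, adjusted p = 0.0855 by edgeR and 0.0143 by DESeq2) and -0.48 (SE 0.160, edgeR adjusted p = 0.0452) without that library. Against NE it was -0.49 (SE 0.695, edgeR adjusted p = 0.761) and, without that library, -0.50 (SE 0.145, edgeR adjusted p = 0.0233). Etfa and Etfdh, which encode the alpha subunit and the membrane dehydrogenase, differed from CTR by 0.03 and 0.20 (-0.11 and 0.01 without CTR replicate 1) and did not pass edgeR's test.

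Peroxisomal oxidation shortens chains that mitochondria handle poorly. Acox3, an acyl-CoA oxidase of branched chains, ranged from 266 to 277 CPM in TDE-treated, from 191 to 250.2 CPM in NE-treated and from 149 to 236 CPM in CTR libraries. Every TDE-treated library lay above all others, with differences of 0.47 against CTR (SE 0.188, adjusted p = 0.120, edgeR), or 0.30 without CTR replicate 1 (adjusted p = 0.0880), and 0.26 against NE (SE 0.188, adjusted p = 0.458). Without CTR replicate 3 edgeR called Acox3 higher against CTR, and voom on all libraries called it higher in both comparisons. Acaa1a, a peroxisomal thiolase, is described here because of its values. It had 352, 115 and 105 CPM in CTR, 102, 103 and 126 CPM in NE-treated and 169.6, 177 and 169.6 CPM in TDE-treated libraries. The TDE-treated libraries lay above every NE-treated library and above CTR replicates 2 and 3, and below CTR replicate 1. The log2 fold change against CTR was -0.15 (SE 0.424, adjusted p = 0.810, edgeR) with all libraries and 0.64 (SE 0.105, adjusted p = 0.00165) without CTR replicate 1, and against NE it was 0.64 (SE 0.426, adjusted p = 0.416, and 0.000686 without that library). Ehhadh and Hsd17b4, the bifunctional enzymes, did not pass edgeR's test in either comparison with all libraries. Hsd17b4 passed with a difference of -0.25 from CTR without CTR replicate 1 (adjusted p = 0.0233, edgeR), and the same fit called it lower than in NE. Voom on all 9 libraries called it in both comparisons (adjusted p = 0.00250 against CTR and 0.000555 against NE). Acaa1b, the close copy of Acaa1a, had 2.15, 1.06 and 0 reads in CTR, 0 in every NE-treated and 0, 0 and 1.04 in the TDE-treated libraries. The coding sequences of this pair (GENCODE vM21 transcripts) are 96.5% identical, and 34.0% of the windows of 50 bases along the Acaa1a transcript occur unchanged in Acaa1b, yet nearly all reads were listed under Acaa1a. Acaa1a also shares 290 exon bases on the opposite strand with Myd88, which had about 1697 reads per library on average against 2902 for Acaa1a.

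Among the peroxisomal transporters, Abcd2, which imports very long-chain acyl-CoA, rose. It had 55.8, 74.0 and 84.7 CPM in CTR, 75.2, 81.1 and 74.9 CPM in NE-treated and 118, 113 and 119.8 CPM in TDE-treated libraries, and the TDE-treated libraries lay above all others. The difference was 0.71 against CTR (SE 0.161, adjusted p = 0.0208, edgeR) and 0.60 against NE (SE 0.160, adjusted p = 0.0414). Without CTR replicate 1 these values were 0.55 (SE 0.0852, adjusted p = 0.00124) and 0.59 (SE 0.0754, adjusted p = 0.000304). The call against CTR was lost without any one TDE-treated library or without CTR replicate 2 and the call against NE without any one library other than CTR replicates 1 and 3, with edgeR's test. Of the 17 alternatives, 9 kept the call against CTR and 7 that against NE. Abcd3, which carries branched and dicarboxylic chains, differed by 0.16 from CTR (-0.03 without CTR replicate 1) and by -0.09 from NE and did not pass.

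Thioesterases act against the synthetases by splitting acyl-CoA into free fatty acid and coenzyme A. Acot1 (cytosolic) and Acot2 (mitochondrial) lie next to each other on chromosome 12 of GRCm38, Acot2 at 83987861 to 83993873 and Acot1 at 84009490 to 84018371, both on the + strand, followed by Acot4, Acot3, Acot5 and Acot6. Acot1 had 12.5, 8.66 and 7.41 CPM in CTR, 8.22, 6.93 and 9.49 CPM in NE-treated and 2.16, 2.67 and 2.14 CPM in TDE-treated libraries. The TDE-treated libraries lay below all others. Its log2 fold change was -2.03 against CTR (SE 0.247, adjusted p = 0.00142, edgeR) and -1.82 against NE (SE 0.246, adjusted p = 0.00222), and it passed in both comparisons under each of the 17 alternatives. Acot2 had 4.93, 10.1 and 9.32 CPM in CTR, 10.3, 8.02 and 8.64 CPM in NE-treated and 3.71, 4.64 and 4.49 CPM in TDE-treated libraries, so that the TDE-treated libraries were lowest and CTR replicate 1 was close above them. It fell by 1.07 against NE on the log2 scale (SE 0.274, adjusted p = 0.0348, edgeR), and against CTR it differed by -0.93 (SE 0.274, adjusted p = 0.0520) or, without CTR replicate 1, -1.19 (SE 0.153, adjusted p = 0.000433). The call of Acot2 against NE was kept under 8 of the 17 alternatives and was lost without any one NE-treated or TDE-treated library, with edgeR adjusted p-values of up to 0.146.

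Acot1 and Acot2 share much of their sequence, and the pair is therefore also given as a sum. Over 1236 aligned coding bases the transcripts are 95.6% identical, and 527 of 2223 windows of 50 bases along Acot1 (23.7%) occur unchanged in Acot2. The longest coding run without a difference, 273 bases in exon 3 of both genes (chr12:84017006-84017278 in Acot1 and chr12:83992728-83993000 in Acot2, GRCm38, + strand), is shown to make plain that a read inside it fits both genes.
Acot1 and Acot2, shared run: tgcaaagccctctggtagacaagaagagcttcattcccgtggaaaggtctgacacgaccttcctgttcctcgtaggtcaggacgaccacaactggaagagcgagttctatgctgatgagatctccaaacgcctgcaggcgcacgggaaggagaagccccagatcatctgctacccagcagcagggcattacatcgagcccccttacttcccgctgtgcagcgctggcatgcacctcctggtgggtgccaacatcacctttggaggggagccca
Directly before this run lies the stretch of 120 coding bases with the most differences, 14, which are given in capitals (chr12:84016886-84017005 in Acot1 and chr12:83992608-83992727 in Acot2). A read that lies within the aligned coding bases can be placed on one gene only where it covers a differing base.
Acot1, differing stretch: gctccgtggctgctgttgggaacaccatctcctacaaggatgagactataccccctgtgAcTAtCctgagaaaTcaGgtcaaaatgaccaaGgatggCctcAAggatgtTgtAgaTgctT
Acot2, differing stretch: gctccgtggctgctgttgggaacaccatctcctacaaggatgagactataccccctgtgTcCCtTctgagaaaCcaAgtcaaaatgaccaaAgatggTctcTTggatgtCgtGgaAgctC
Estimated reads of either gene alone were fractional in every library, whereas their sum was whole within 0.05 reads in 8 of 9 libraries. Summed, the pair had 17.4, 18.8 and 16.7 CPM in CTR, 18.6, 14.9 and 18.1 CPM in NE-treated and 5.87, 7.31 and 6.63 CPM in TDE-treated libraries. CTR replicate 1, which stood out for either gene alone, lay between the other CTR libraries in the sum. As one entry, a choice made after seeing the data, the pair fell by 1.42 on the log2 scale against CTR (SE 0.150, edgeR adjusted p = 0.000792, and by 1.44 without CTR replicate 1) and by 1.38 against NE (SE 0.150, adjusted p = 0.000816). Neighbours in the cluster are named because of their position. Acot4, a peroxisomal thioesterase, had 9.26, 10.67 and 14.07 reads in CTR, 4.61, 18 and 13.32 in NE-treated and 1, 0 and 3 in TDE-treated libraries (edgeR adjusted p = 0.0398 against CTR and 0.0386 against NE). Acot6 had 7, 12 and 14 reads in CTR, 19, 11 and 15 in NE-treated and 6, 4 and 2 in TDE-treated libraries (edgeR adjusted p = 0.0835 against CTR, 0.0473 against CTR without CTR replicate 1, and 0.0339 against NE). Acot3 and Acot5 were listed at 0 in every library.

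The PGC-1 coactivators raise transcription of mitochondrial and oxidation genes together with nuclear receptors. Ppargc1a had 0, 1 and 1 reads in CTR, 2, 2 and 2 in NE-treated and 4, 2 and 6 in TDE-treated libraries, of which only TDE replicates 1 and 3 exceeded the floor. The exact permutation test of mean CPM gave p = 0.1 against CTR and 0.1 against NE, the smallest p possible with 3 libraries against 3, and on the reads themselves p = 0.4 against NE. Ppargc1b, at 2.40 to 4.40 CPM over the 9 libraries, differed by 0.27 from CTR (SE 0.327, edgeR adjusted p = 0.573), or 0.11 without CTR replicate 1, and by 0.09 from NE (SE 0.326, adjusted p = 0.924).

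**Figure D4:**
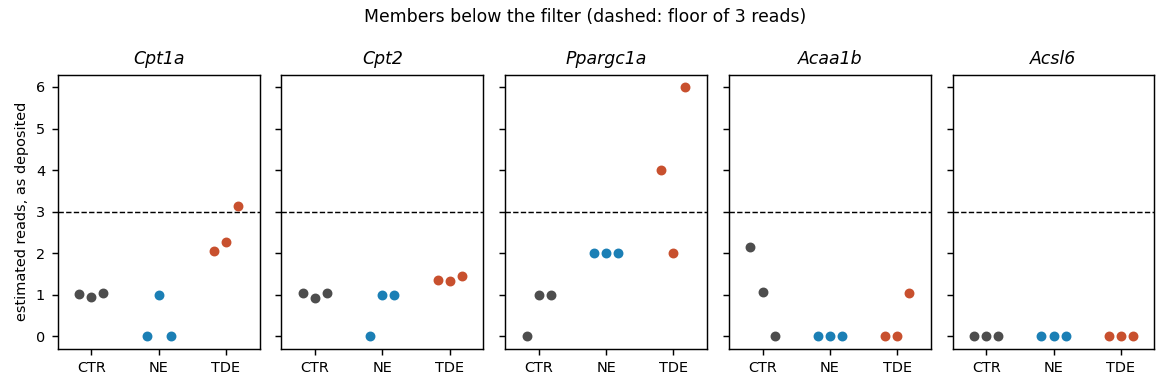
Deposited estimated reads of the 5 members that did not pass the filter, 1 point per library in each of the 3 groups, with the floor of 3 reads as a dashed line. Only TDE replicates 1 and 3 of Ppargc1a lie clearly above the line, and TDE replicate 3 of Cpt1a at 3.14 reads lies just above it.

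Per kb of gene length, levels of the members spanned a wide range. In NE-treated BMDCs the highest were Acox3 at 76.5 CPM per kb, Acaa1a at 62.7 CPM per kb and Etfb at 51.2 CPM per kb, and the lowest of the 35 tested members was Cpt1b at 0.324 CPM per kb. In TDE-treated BMDCs Acaa1a (97.6 CPM per kb) and Acox3 (91.8 CPM per kb) came first and Acsl5 followed at 55.4 CPM per kb, where it had stood at 24.1 CPM per kb and rank 15 in NE-treated cells. Acot1 had 3.61 CPM per kb in NE-treated and 1.02 CPM per kb in TDE-treated cells, and Cpt1c 0.635 and 2.20 CPM per kb, so the changes of Cpt1c concern a low level. Neighbours in this order often lay close together, such as Hadha and Hadhb in NE-treated cells (34.0 ± 1.78 and 31.7 ± 0.946 CPM per kb, SD, n = 3). The study's methods speak of amplification at the 3' end, and how evenly reads covered each gene was not tested. Where coverage is uneven, division by length can shift short and long genes against each other in this order.

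**Figure D5:**
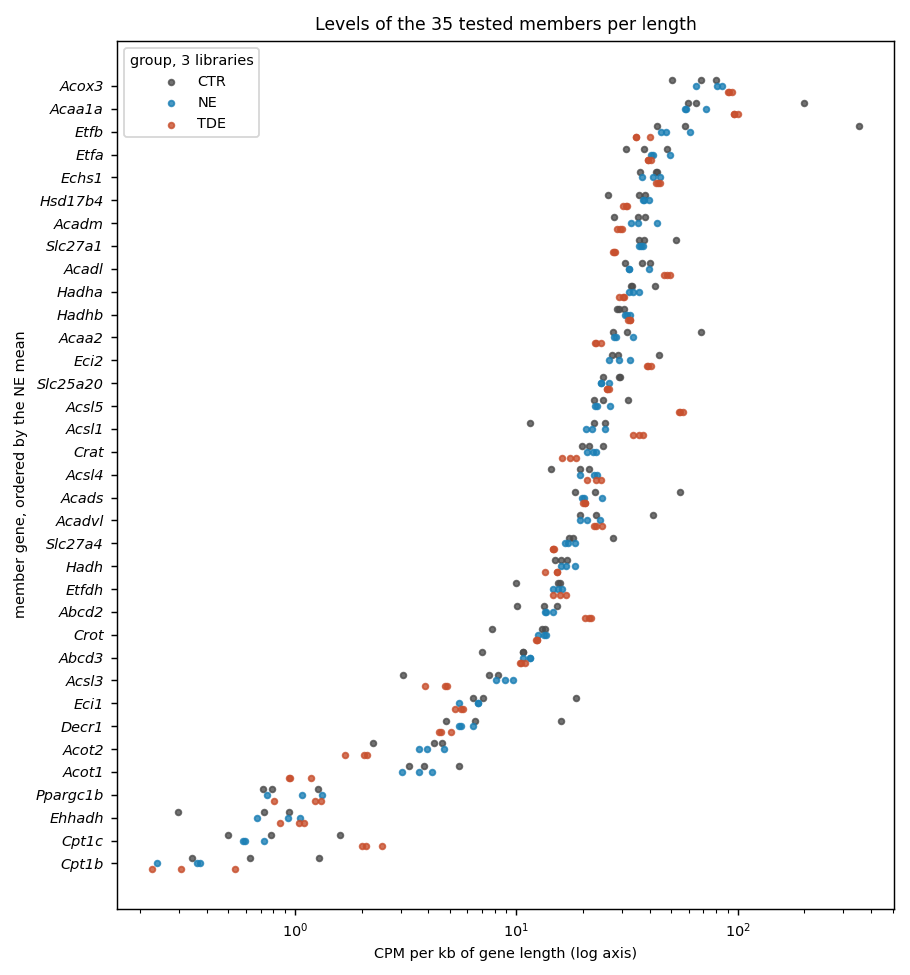
CPM per kb of gene length on a log axis for the 35 tested members, ordered by the NE mean, with 1 point per library (dark grey CTR, blue NE-treated, red-brown TDE-treated). Acsl5 moves from the middle of the order to 55.4 CPM per kb with TDE, and the grey points of Etfb, Acaa1a, Acads, Eci1 and Decr1 that lie farthest to the right are CTR replicate 1.

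Promoters of the members were searched for AGGTCA, the half-site of nuclear receptors such as the PPARs, which bind it as a direct repeat with 1 base between the copies together with RXR. RefSeq promoters (GRCm38.p6, 250 bases before to 50 after the start) were at hand for 33 of the 40 members, in 39 windows. The direct repeat with at most 1 mismatch, on either strand, was in 0 of the 39 windows and in 182 of all 32851 windows (0.554%), and a single half-site was in 6 of 39 (15.4%) and in 5340 of all windows (16.3%). With so low a share over all windows, 0 of 39 cannot set the members apart from other genes. Sites outside these windows were not searched. The 250 bases before the RefSeq start are given for Acsl5 and Cpt1c, the called members with the largest rise against NE, and for both thioesterases, with the half-site in capitals. The RefSeq start of Acsl5 lies 1431 bases inside the gene as GENCODE places it and that of Acot1 12 bases inside, so the Acsl5 window lies within the gene span given above and the bases before its first GENCODE start are not shown. The half-site occurs once, in Cpt1c.
Acsl5 (chr19:55253119-55253368, + strand): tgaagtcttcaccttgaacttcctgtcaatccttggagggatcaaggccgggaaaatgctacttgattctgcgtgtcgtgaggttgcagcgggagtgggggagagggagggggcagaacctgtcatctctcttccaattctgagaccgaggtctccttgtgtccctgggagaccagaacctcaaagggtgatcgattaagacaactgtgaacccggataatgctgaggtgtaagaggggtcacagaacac
Cpt1c (chr7:44974852-44975101, - strand): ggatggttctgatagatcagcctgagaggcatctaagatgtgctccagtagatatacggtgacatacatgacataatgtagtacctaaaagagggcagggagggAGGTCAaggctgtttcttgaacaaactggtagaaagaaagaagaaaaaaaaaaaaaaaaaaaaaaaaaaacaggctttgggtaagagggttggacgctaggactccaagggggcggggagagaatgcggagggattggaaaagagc
Acot1 (chr12:84009252-84009501, + strand): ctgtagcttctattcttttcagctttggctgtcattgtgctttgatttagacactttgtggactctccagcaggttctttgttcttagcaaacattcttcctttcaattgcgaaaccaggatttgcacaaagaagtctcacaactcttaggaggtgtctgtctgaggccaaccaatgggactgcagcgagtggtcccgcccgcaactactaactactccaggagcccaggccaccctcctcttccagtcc
Acot2 (chr12:83987611-83987860, + strand): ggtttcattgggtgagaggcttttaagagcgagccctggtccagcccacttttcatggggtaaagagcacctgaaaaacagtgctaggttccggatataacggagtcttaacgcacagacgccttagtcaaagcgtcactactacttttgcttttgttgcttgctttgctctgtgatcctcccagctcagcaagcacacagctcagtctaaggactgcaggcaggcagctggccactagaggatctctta

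Genes of the same pathway outside the set also went both ways. Of 91 such genes, 73 were tested, and 8 rose (11.0%) and 7 fell (9.59%) in TDE-treated against CTR BMDCs by edgeR's test, beside 7.57% and 9.34% of all tested genes. Compared with NE-treated BMDCs, 9 were higher (12.3%) and 8 lower (11.0%), beside 6.73% and 7.21%. The counts without CTR replicate 1 were 18 (24.7%) and 17 (23.3%) against CTR, beside 16.4% and 18%, and 20 (27.4%) and 21 (28.8%) against NE, beside 19.2% and 21.5%. The lowest adjusted p-value in both comparisons with all libraries was that of Pparg, the receptor of fat storage, which fell from a mean of 14.0 CPM in CTR and 16.8 CPM in NE-treated to 3.99 CPM in TDE-treated BMDCs (log2 fold change -1.81, SE 0.157, adjusted p = 0.000337 against CTR, edgeR). Ppard, a receptor that acts on oxidation genes in many tissues, rose by 0.93 (SE 0.133, adjusted p = 0.00313). Pdk1, a kinase that shuts pyruvate out of the mitochondrial oxidation route, rose from 61.6 to 241 CPM (log2 fold change 1.97, SE 0.305, adjusted p = 0.00442). Slc27a3, a further fatty acid transport protein, fell by 1.35 on the log2 scale (SE 0.165, adjusted p = 0.00145), and the acetyl-CoA synthetase gene Acss1 rose by 0.85 (SE 0.126, adjusted p = 0.00376). Prkaa2, a catalytic subunit gene of AMPK, rose by 1.51 from a low level (0.612 CPM in CTR, adjusted p = 0.00664), and Acacb, whose product makes the malonyl-CoA that inhibits CPT1, was higher than in NE-treated cells by 1.80 (SE 0.356, adjusted p = 0.0123). Each of these 7 genes passed again without CTR replicate 1 in the comparison given, and the value of Pdk1 moved most, to 1.65. Of 18 citric acid cycle enzymes, 1 rose (5.56%) and 0 fell against CTR, beside 7.57% and 9.34% of all tested genes. Against NE, 0 were higher and 1 was lower (5.56%), beside 6.73% and 7.21%. Without CTR replicate 1, 4 rose (22.2%) and 2 fell (11.1%) against CTR, beside 16.4% and 18%. In the same fit 3 were higher (16.7%) and 2 lower (11.1%) than in NE-treated BMDCs, beside 19.2% and 21.5%.

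NE-treated and CTR BMDCs were compared to see what exosomes of non-tumor cells do to these genes. None of the 35 tested members differed by edgeR's test, beside 0% of all tested genes, and none did at an unadjusted p under 0.05, by which 487 of the 15028 genes did. Of all tested genes, 6 were called by DESeq2 (0.0399%), 18 by voom (0.12%) and 3 by edgeR without CTR replicate 1 (0.0196%), none of them a member. The fits with the replicate block and with only the 6 libraries compared called 0 genes (0%). Log2 fold changes of the members ranged from -1.57 (Etfb) to 0.50 (Acsl3) with all libraries and from -0.57 (Cpt1b) to 0.17 (Acsl3) without CTR replicate 1, with adjusted p-values of at least 0.659. The groups' libraries did not overlap in 1 member, Hadhb, beside 7.71% of all tested genes (13.2% without CTR replicate 1), with 63.3 to 67.1 CPM in NE-treated and 58.3 to 62.9 CPM in CTR libraries. A p-value above the threshold does not show that the groups are alike, and a difference such as that of Acsl5, -0.13 with an SE of 0.157, leaves changes of that order undetected with 3 libraries.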

How the data were processed

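Per the labels and the study's methods, RNA of 9 BMDC libraries was amplified with oligo(dT) and random primers, sequenced and aligned with TopHat2 2.1.1. The authors deposited estimated counts (expected counts) per gene, not normalized, with group means that entered no test. The counting program, its strand setting and the genome build are not given in the sources used here. Members and lists were chosen with earlier results of these data known.

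Counts were rounded, filtered with filterByExpr, scaled by TMM and tested with the quasi-likelihood test of edgeR 4.0.16 (R 4.3.3) over all 9 libraries, with Benjamini-Hochberg adjustment over all tested genes and a threshold of 0.05. An SE given with edgeR's test is the absolute log2 fold change divided by the square root of the test's F statistic. The scripts were tested on simulated data. Alternatives were DESeq2 1.42.0, limma 3.58.1 (voom with sample quality weights), other scalings and filters, the 6 libraries compared alone, a replicate block and leaving out each library. The sum of Acot1 and Acot2 was added after seeing the data. Members at or under the floor of 3 reads had an exact permutation test. Values in every library are given for members called by edgeR or DESeq2, for members at the floor in CTR and for Cpt1b, and up to 6 other pathway genes per comparison were named by adjusted p-value. Genes named outside this rule include the members Acaa1a and Hadhb, members that edgeR called only without CTR replicate 1 or 3, and Acot4 and Acot6, which are not members. These were chosen after their values were seen. Positions follow GENCODE vM21 (GRCm38), in which all 40 members were found by identifier, and promoters follow RefSeq (GRCm38.p6). Python 3.11.15 drew the figures.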

Additional observations from a re-analysis of the deposited data

How the results depend on the processing

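The number of members that differed depended on the processing, and the cause was not tested. Against CTR, where 4 members were called, DESeq2 called 11, limma voom with sample quality weights 21, the fit with no filter on low counts 2 and the fit to the 6 libraries compared 2, and leaving out 1 library gave 2 to 16, with 16 without CTR replicate 1, 11 without CTR replicate 3 and 2 without CTR replicate 2 or any TDE-treated library. The share of all genes called moved as well, from 16.9% to 34.4%, 25.6% and 12.6% without CTR replicates 1, 3 and 2, to 7.15% to 7.63% without a TDE-treated library and to 6.00% with no filter. Against NE, where 5 were called, voom called 21, no filter 3 and the 6 libraries 18, and leaving out 1 library gave 2 to 18, with 18 without CTR replicate 1 and 2 without any NE-treated or TDE-treated library, where the share of all genes went from 13.9% to 40.7% without CTR replicate 1, to 6.29% to 8.27% without an NE-treated or TDE-treated library and to 4.95% with no filter. Other pathway genes called against CTR (15) became 23 with DESeq2, 40 with voom, 7 with the 6 libraries and 7 to 35 with 1 library left out, and those against NE (17) became 54 with voom, 7 with no filter, 40 with the 6 libraries and 5 to 41. For citric acid cycle enzymes the single call against CTR became 0 with library totals, no filter or the 6 libraries, 8 with voom and 0 to 6 with 1 library left out, and that against NE became 0 with library totals or no filter, 2 with DESeq2, 10 with voom, 5 with the 6 libraries and 0 to 5. The members' median of -0.10 against CTR became -0.027 with library totals, -0.051 with no filter and -0.12 to -0.048 with 1 library left out, that of -0.08 against NE became 0.048 with no filter and -0.12 to -0.037, and that of NE against CTR became 0.14 with library totals, which also moved the median of all genes to 0.12. Acaa1a reversed from -0.15 to 0.59 with voom (adjusted p = 0.000102, limma) and to 0.64 without CTR replicate 1, and with 1 library left out it ranged from -0.43 (without CTR replicate 3) to that value. No member was called between NE and CTR under any of the 17 alternatives, and Acsl5 and Acot1 kept their direction and call against CTR and NE under all of them.

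Same-numbered libraries did not vary together in a steady way, and this check cannot tell whether they shared a mouse or culture. Deviations of same-numbered libraries correlated at -0.035, -0.056 and 0.072 for TDE and CTR, at 0.027, -0.039 and -0.071 for TDE and NE, and at -0.370, 0.185 and -0.585 for NE and CTR. With the replicate block, 2 members were called against CTR and 3 against NE, 7 other pathway genes in either comparison and 0 citric acid cycle enzymes. Calls lost with the block were those of Abcd2 and Slc27a1 against CTR (adjusted p = 0.0574 and 0.0886, edgeR) and of Abcd2 and Acot2 against NE (adjusted p = 0.0980 and 0.0785). The exact test of Cpt2 against CTR on rounded reads gave no value, since every CTR and TDE-treated library then held 1 read.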
